A study of Mus musculus with 6 samples.

Results

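The genes described here are the mouse genes whose symbols start with Nduf, which carry the name of NADH:ubiquinone oxidoreductase, complex I of the mitochondrial respiratory chain. The deposited files listed 46 of them among 24537 genes, and the symbol was the only criterion. They held 7 redox core subunits, 28 accessory subunits, 8 assembly factors and the acyl carrier protein Ndufab1. The remaining 2, Ndufa4 and Ndufa4l2, keep the name, although Ndufa4 is now counted with complex IV. Cerebellar RNA of males aged 6 weeks had been sequenced in 6 libraries. HET libraries (n = 3) carried 1 null allele of Reln, and their strain was given as Orl/BalbC. WT libraries (n = 3) were wild type, and their strain was given as C57BL/6. Genotype and labelled strain cannot be told apart, no treatment was given in the labels, and the labels name no animals behind the replicates. P-values therefore measure the spread between these libraries, which may be technical.

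Complex I takes electrons from NADH at the tip of its matrix arm, passes them along a chain of iron-sulfur clusters to ubiquinone, and couples this to proton pumping in the membrane arm. Its core subunits have bacterial counterparts. The accessory subunits surround and stabilise them, and assembly factors help to build the complex and then leave it. Neurons depend heavily on this respiration, and in mice the loss of accessory subunits such as Ndufs4 damages the brain stem and cerebellum. The membrane-arm subunits encoded by mitochondrial DNA were not analysed here, since mitochondrial sequences had been filtered out before alignment, per the labels' protocols.

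Depth, estimated from the most frequent low value, was about 22890000 to 27110000 reads in HET libraries and 26870000 to 28610000 reads in WT libraries. Reln, the targeted gene, had 0.531, 0.509 and 0.580 FPKM (read abundance scaled to transcript length and library size) in HET replicates 1, 2 and 3, against 0.834, 0.771 and 0.940 FPKM in WT replicates 1, 2 and 3. The groups did not overlap (exact permutation test, two-sided, p = 0.1, which is the lowest value that 3 against 3 libraries allow). Summed FPKM of 5 granule cell markers was 405 to 444 in HET and 378 to 457 in WT libraries, and that of 5 Purkinje cell markers was 222 to 231 in HET and 170 to 240 in WT libraries, so both defining cerebellar cell types were represented in every library.

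The members spanned a wide range of levels. Of the 46, 15 had a mean over 10 FPKM, 26 lay between 1 and 10 FPKM, and 5 lay under 1 FPKM. The highest were 2 subunits of the distal membrane arm. Ndufb10 (chromosome 17, 24722060 to 24724478, minus strand, mm10) had 38.6, 40.7 and 35.7 FPKM in HET replicates 1, 2 and 3, against 40.3, 30.2 and 32.8 FPKM in WT replicates 1, 2 and 3. Ndufb11 (chromosome X, 20615326 to 20617619, minus strand) had 35.0, 41.3 and 32.4 FPKM in the HET libraries and 35.5, 26.9 and 28.4 FPKM in the WT libraries. The ranges of these 2 genes overlapped in both groups, and Ndufb10 was above Ndufb11 in every library but HET replicate 2. Ndufb9 followed, at 33.1, 32.6 and 31.6 FPKM in HET and 29.5, 27.1 and 27.0 FPKM in WT libraries, a narrow range in which every HET library lay above every WT library. After median-of-ratios scaling (described below) its groups overlapped, with WT replicate 2 at 32.4 and HET replicate 2 at 28.8. Ndufa4 stood at 25.1, 31.2 and 24.8 FPKM in HET and 25.9, 22.2 and 24.5 FPKM in WT libraries, next to the core subunit Ndufv1. The structural subunits had a median level of 7.22 FPKM, against 1.63 FPKM for the 8 assembly factors, members under 1 FPKM included in both.

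The lowest members were 2 assembly factors, the paralog of Ndufa4 and an accessory subunit. Ndufaf2, a paralog of Ndufa12 that holds its place during assembly, had 0.0904, 0.0981 and 0.101 FPKM in HET and 0.0986, 0.0720 and 0.0854 FPKM in WT libraries. Ndufaf6, another assembly factor, had 0.196, 0.175 and 0.194 FPKM in HET and 0.176, 0.148 and 0.154 FPKM in WT libraries. For both, WT replicate 1 lay inside the HET range. Ndufa4l2, known as a gene induced by hypoxia, had 0.646, 0.682 and 0.591 FPKM in HET and 0.635, 0.436 and 0.567 FPKM in WT libraries. Ndufs4 (chromosome 13, 114287795 to 114388258, minus strand), the accessory subunit whose loss models Leigh syndrome in mice, had 0.639, 0.744 and 0.571 FPKM in HET and 0.583, 0.502 and 0.551 FPKM in WT libraries. These 4 and Ndufaf5, which hydroxylates Ndufs7, at 0.712 ± 0.097 FPKM in HET and 0.655 ± 0.082 FPKM in WT libraries (SD, n = 3 each), were below the minimum for testing. All 5 had a higher mean in HET libraries, as did 67.7% of the 19511 genes fitted with no minimum level. Their groups overlapped as deposited. After median-of-ratios scaling every HET value of Ndufa4l2 lay above every WT value.

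**Figure D1:**
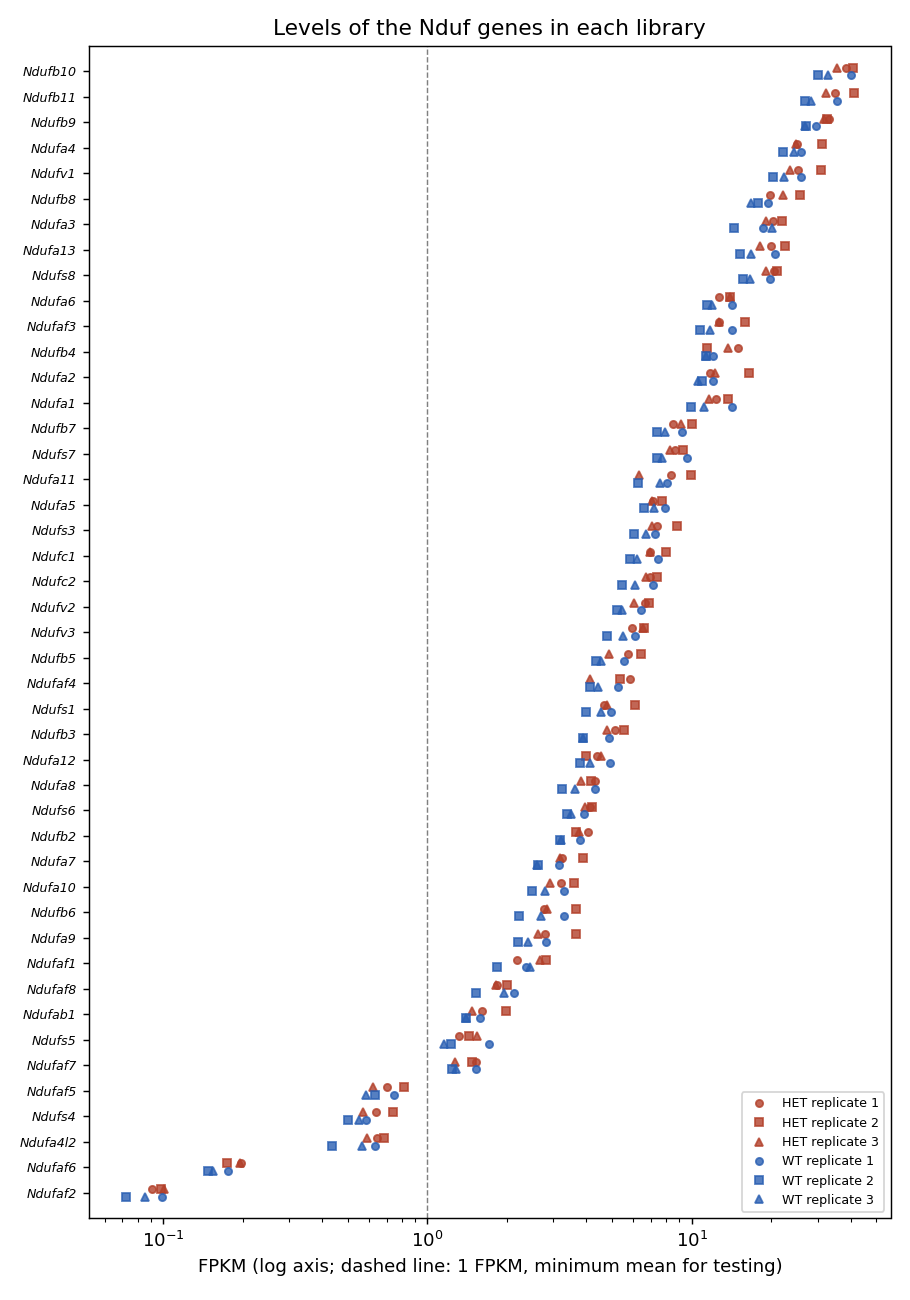
FPKM of 45 of the 46 Nduf genes (rows, ordered by mean) on a log axis in the 3 HET libraries (red) and the 3 WT libraries (blue), with symbols for the replicate number. Gene means run from 0.0909 FPKM for Ndufaf2 to 36.4 FPKM for Ndufb10, while the libraries of any 1 gene lie close together.

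Levels of different members are compared here only per length of annotated exon, and copies elsewhere can shift them. All 46 matched a single gene of GENCODE M21. In 20, at least 1 of the gene's 73-base words (a trimmed read) also occurred in a transcript of another gene, and in 9 over 10% did. The largest shares were 63.3% in Ndufaf2, 28.1% in Ndufb6, 25.7% in Ndufa13, 17.3% in Ndufb4, whose copies include Ndufb4c, and 16.2% in Ndufs5. Those of Ndufb6 and Ndufa13 came from overlapping neighbours and those of Ndufb4 and Ndufs5 from pseudogenes elsewhere. In Ndufb9, whose exons overlap Gm49356 on the same strand, 13.6% were shared. Exons of 17 members overlapped a gene on the opposite strand. The libraries were stranded, but the strand setting of the quantification is not given in the sources used here, so levels of these members are uncertain.

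In HET against WT cerebellum no Nduf gene passed the test. The 41 members averaging 1 FPKM or more were tested together with all 6358 such genes by limma on log2(FPKM + 1). At an adjusted p under 0.05, 0 of the 41 were called, against 0.0786% of all tested genes (5 genes, of which 1, or 0.0157%, was higher and 4, or 0.0629%, were lower in HET). At an unadjusted p under 0.05 the count was also 0 of 41, against 3.33% of all tested genes. Without the intensity trend, limma called 0 members, with 2 at an unadjusted p under 0.05 (4.88%, against 3.19% of all tested genes). Without WT replicate 1 it called 0 members and 0.983% of all tested genes, with 8 members at an unadjusted p under 0.05 (19.5%, against 14.7%). The smallest p of a member was 0.066 (Ndufb8, limma adjusted p = 0.90), and adjusted p-values of the members ran from 0.90 to 0.98. All 41 had a higher mean in HET libraries, as did 83.1% of all tested genes. The members' median log2 difference (HET minus WT, mean log2(FPKM + 1)) was 0.16, against 0.083 over all tested genes. The 2 sets differ in level, with a median of 6.02 FPKM over the 46 members and 2.74 FPKM over all tested genes. At a mean of at least 5 FPKM the median difference was 0.17 for the 25 members left, against 0.14 over all genes then tested. Ratios of mean FPKM ran from 1.01 for Ndufa12 to 1.25 for Ndufb8, and SEs of the log2 difference from 0.097 to 0.17. A change in the number of cells of a type and a change in RNA per cell cannot be told apart in such bulk samples.

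The 7 redox core subunits all had higher means in HET libraries with overlapping groups, at a median log2 difference of 0.17. Ndufv1 (chromosome 19, 4007384 to 4012806, minus strand), which binds NADH and the flavin, had 25.3, 30.9 and 23.6 FPKM in HET replicates 1, 2 and 3, against 25.9, 20.4 and 22.4 FPKM in WT replicates 1, 2 and 3. HET replicate 2 was highest and WT replicate 1 came second, above the other HET libraries (difference 0.21, SE 0.17, limma adjusted p = 0.90). Ndufv2, its iron-sulfur partner, had 6.66, 6.92 and 6.05 FPKM in HET and 6.44, 5.24 and 5.46 FPKM in WT libraries. Ndufs1, the largest subunit, which relays electrons from the flavin end, had 4.67, 6.12 and 4.80 FPKM in HET and 4.95, 3.98 and 4.56 FPKM in WT libraries. In both genes WT replicate 1 stood within the HET range and WT replicate 2 was lowest.

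Ndufs3, Ndufs7 and Ndufs8, core subunits nearer to ubiquinone, also had WT replicate 2 as their lowest library. Ndufs3 had 7.39, 8.83 and 7.06 FPKM in HET and 7.27, 6.04 and 6.71 FPKM in WT libraries. Here WT replicate 1 stood among the HET values. Ndufs7, which carries the last cluster before ubiquinone, had 8.63, 9.24 and 8.27 FPKM in HET and 9.61, 7.40 and 7.72 FPKM in WT libraries, and WT replicate 1 was the highest of all. Its difference was the smallest of the core, 0.079 (SE 0.15, limma adjusted p = 0.91), and after median-of-ratios scaling it was -0.0086. Ndufs8, a ferredoxin-like subunit, had 20.5, 21.1 and 19.2 FPKM in HET and 19.9, 15.7 and 16.7 FPKM in WT libraries, with a difference of 0.21 like that of Ndufv1 (SE 0.16, limma adjusted p = 0.90).

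Accessory subunits of the distal membrane arm had the highest median difference of the role groups, 0.19 over 10 tested genes. They also had the highest median level of the subunit groups, 10.6 FPKM. The redox core and the matrix arm were close, at 0.17 each, and the ranking was not tested. Ndufb8 (chromosome 19, 44548572 to 44555440, minus strand), often used as the complex I band on immunoblots, had 19.9, 25.7 and 22.1 FPKM in HET libraries, against 19.5, 17.8 and 16.8 FPKM in WT libraries. Every HET value lay above every WT value, HET replicate 1 only narrowly above WT replicate 1 (difference 0.30, SE 0.16, limma adjusted p = 0.90). Its exons overlap those of Gm20538 on the same strand, with 1.93% of its 73-base words shared. After median-of-ratios scaling the groups overlapped, since WT replicate 2 was then at 21.3 and HET replicate 1 at 20.0. Ndufb3 had 5.12, 5.56 and 4.79 FPKM in HET and 4.85, 3.89 and 3.87 FPKM in WT libraries, so WT replicate 1 exceeded HET replicate 3 (difference 0.25, SE 0.13, limma adjusted p = 0.90). Ndufb11, with 0.25 (SE 0.17), also overlapped, with WT replicate 1 above HET replicates 1 and 3. After median-of-ratios scaling every HET value lay above every WT value in Ndufb3 and in Ndufb11, without passing (limma adjusted p = 0.76 each).

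In the matrix arm the 8 tested accessory subunits split more widely, with a median of 0.17. Ndufa2 had 11.76, 16.44 and 12.32 FPKM in HET and 12.03, 10.97 and 10.57 FPKM in WT libraries, so its difference of 0.24 (SE 0.15) came mainly with HET replicate 2. Ndufa7 had 3.22, 3.89 and 3.18 FPKM in HET and 3.15, 2.63 and 2.59 FPKM in WT libraries, with no overlap before or after scaling (difference 0.23, SE 0.12, limma adjusted p = 0.90). Ndufs6, a zinc-binding subunit, had 4.11, 4.19 and 3.95 FPKM in HET and 3.91, 3.38 and 3.50 FPKM in WT libraries, also without overlap as deposited. At the other end stood Ndufa5 and Ndufa12. Ndufa5 (chromosome 6, 24518666 to 24528013, minus strand) had 7.16, 7.72 and 7.07 FPKM in HET and 7.93, 6.62 and 7.22 FPKM in WT libraries, so the difference on the log2 scale was 0.012 (adjusted p = 0.98 by limma, SE 0.14). It became -0.074 after median-of-ratios scaling, where all HET values lay below all WT values. Ndufa12 had 4.38, 3.98 and 4.54 FPKM in HET and 4.90, 3.79 and 4.12 FPKM in WT libraries, a difference of 0.012 that became -0.065.

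**Figure D2:**
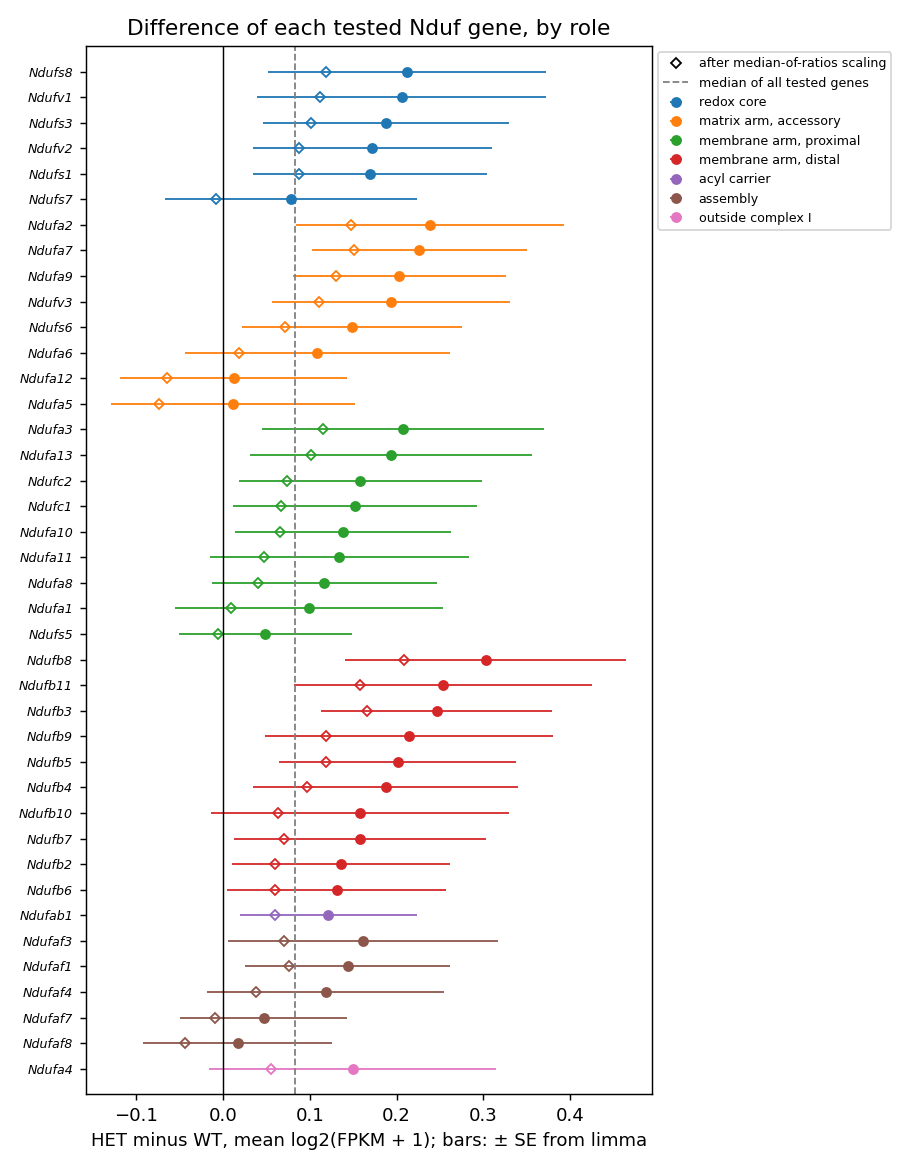
Difference in mean log2(FPKM + 1), HET minus WT, for 40 of the 41 tested Nduf genes grouped by role, with the SE from limma as bars, open diamonds for values after median-of-ratios scaling, and a dashed line at the median of all tested genes, 0.083. All filled points lie above 0, from 0.012 for Ndufa5 to 0.30 for Ndufb8, and 6 diamonds lie below 0.

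Proximal membrane-arm subunits had a median of 0.14 over 9 genes, from 0.049 for Ndufs5 to 0.21 for Ndufa3. Ndufs5 had 1.32, 1.44 and 1.54 FPKM in HET and 1.71, 1.23 and 1.15 FPKM in WT libraries, with WT replicate 1 above all others. The acyl carrier protein Ndufab1, which also serves mitochondrial fatty acid synthesis, stood at 1.68 ± 0.26 FPKM in HET and 1.46 ± 0.10 FPKM in WT libraries (SD, n = 3 each). Of the assembly factors, 5 were tested, with a median of 0.12. Ndufaf3, which works on the ubiquinone-binding module, was far above the rest at 13.8 ± 1.9 FPKM in HET and 12.2 ± 1.8 FPKM in WT libraries (SD, n = 3 each). Ndufaf7, an assembly factor with methyltransferase activity, had 1.52, 1.48 and 1.27 FPKM in HET and 1.52, 1.23 and 1.29 FPKM in WT libraries. Ndufaf8, a partner of Ndufaf5, had 1.84, 2.00 and 1.82 FPKM in HET and 2.13, 1.52 and 1.95 FPKM in WT libraries. Differences of these 2 were 0.047 and 0.017 as deposited, and both turned below 0 after median-of-ratios scaling.

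Across the 41 tested members, groups did not overlap in 4, all with HET above (9.76%, against 4.81% of all tested genes), while HET lay below in 0 members and in 0.739% of all tested genes. The 4 were Ndufa7, Ndufb8, Ndufb9 and Ndufs6 (exact permutation test, two-sided, p = 0.1 each, the lowest value this design allows). After median-of-ratios scaling, HET lay above in 6 members (14.6%, against 7.38% of all tested genes) and below in 1 (2.44%, against 3.84%). Ndufa7 alone was above under both.

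**Figure D3:**
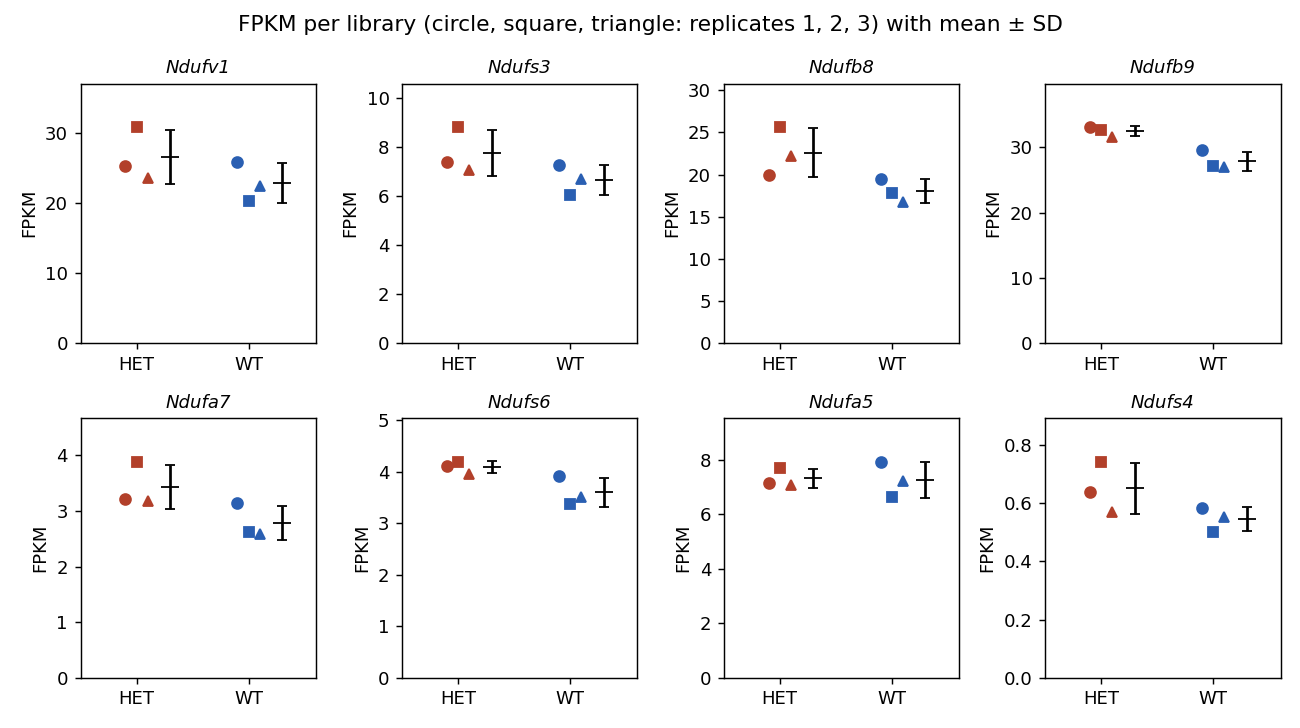
FPKM of 8 Nduf genes in each HET library (red, left) and WT library (blue, right), with mean and SD (n = 3 each) in black and each axis starting at 0. Groups separate without overlap in Ndufb8, Ndufb9, Ndufa7 and Ndufs6, and overlap in Ndufv1, Ndufs3, Ndufa5 and Ndufs4.

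The members moved together from library to library, largely as all genes did. HET replicate 2 was the highest library for 28 of 41 members (56.3% of all tested genes), and WT replicate 2 was the lowest for 34 (78.4% of all tested genes). Relative to each gene's own mean, the members' median was 0.037, 0.19 and -0.019 in HET replicates 1, 2 and 3, against 0.079, -0.21 and -0.11 in WT replicates 1, 2 and 3 on the log2(FPKM + 1) scale. The same median over all tested genes was 0.0062, 0.13 and -0.016 in HET and 0.080, -0.18 and -0.030 in WT libraries. The 2 medians differed most in WT replicate 3, by -0.081 (members minus all tested genes), and next in HET replicate 2, by 0.057. Summed FPKM of the 46 members was 444, 498 and 426 in HET and 449, 360 and 388 in WT libraries. As a percent of each library's summed FPKM it was 0.718, 0.780 and 0.658 in HET and 0.715, 0.653 and 0.705 in WT libraries. On that scale WT replicates 1 and 3 lay within the HET range.

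Median-of-ratios scaling, which divides each library by its median ratio to the others (factors from 0.838 in WT replicate 2 to 1.13 in HET replicate 2), removed most of this shift. The members' median difference was then 0.070, against 0.013 over all tested genes, and 35 of 41 members had a higher mean in HET, against 57.1% of all tested genes. None passed (lowest limma adjusted p = 0.76), and 2 had an unadjusted p under 0.05, against 5.30% of all tested genes. WT replicate 3 was now the lowest library for 27 of 41 members, against 26.9% of all tested genes, with a member median of -0.10 against -0.023 overall. With WT replicate 3 left out, the scaled member median stood 0.036 above that of all genes, against 0.057 with it, and 32 of 41 had a higher mean in HET, against 53.6% of all tested genes. The spread of a member over the 6 libraries (median SD of log2 values) was 0.081 after scaling, against 0.080 over all tested genes.

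**Figure D4:**
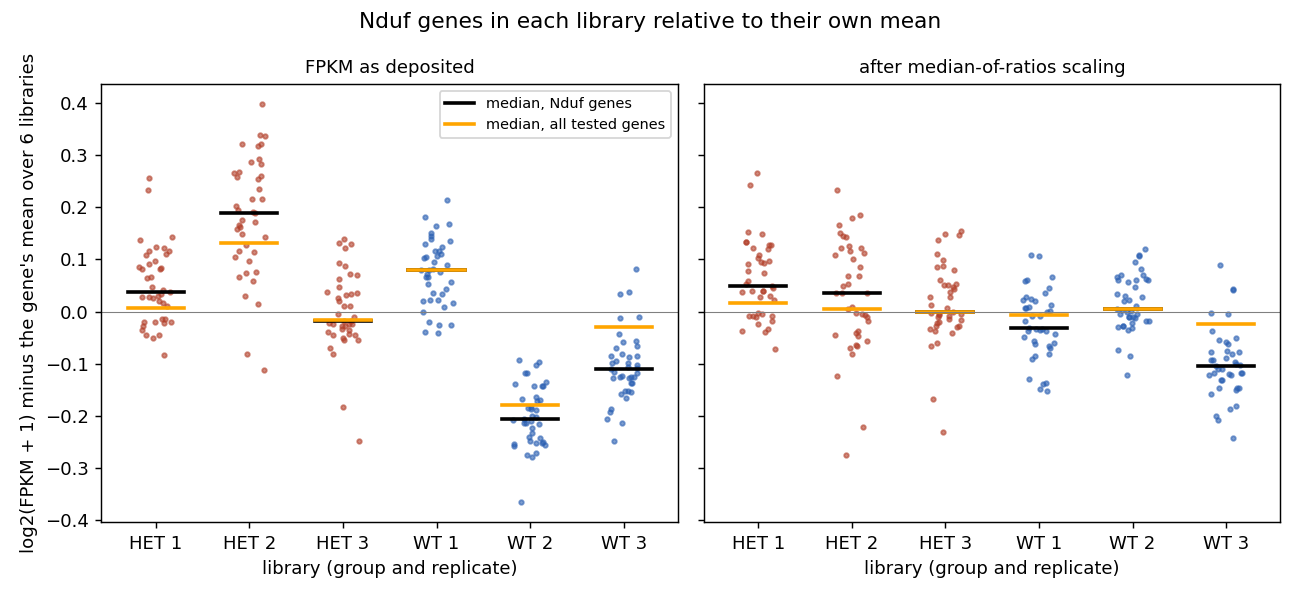
Each dot is 1 of the 41 tested Nduf genes, placed by its log2(FPKM + 1) in a library minus its mean over the 6 libraries, for FPKM as deposited (left) and after median-of-ratios scaling (right), with HET in red and WT in blue. The gap between black bars (median of the Nduf genes) and orange bars (median of all tested genes) is widest in WT replicate 3, where it is -0.081 in both panels.

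As deposited, the size of the difference moved with single libraries. The members' median was 0.24 without WT replicate 1 (0.15 over all tested genes), 0.097 without HET replicate 2 (0.037) and 0.092 without WT replicate 2 (0.013). Without replicate 2 of both groups, the only pair left out, it was 0.029, with 29 of 41 higher in HET, against a median of -0.034 and 34.7% over all tested genes. Other contents of the libraries moved alongside. Malat1, a nuclear noncoding RNA, had 428, 372 and 304 FPKM in HET and 426, 677 and 646 FPKM in WT libraries, so it was highest in the 2 libraries where the members were lowest. Summed FPKM of 5 astrocyte and Bergmann glia markers was 432 to 489 in HET and 330 to 479 in WT libraries, that of 5 oligodendrocyte markers 132 to 180 in HET and 101 to 163 in WT, that of 5 microglia markers 7.29 to 12.8 in HET and 5.29 to 9.25 in WT, and that of 5 endothelial markers 16.3 to 20.6 in HET and 13.9 to 23.7 in WT. All 4 sums, and those of granule and Purkinje cells, were lowest in WT replicate 2. The 5 choroid plexus markers summed to 3.62 to 162 FPKM in HET and 0.811 to 285 FPKM in WT, and the 5 blood markers to 63.0 to 108 FPKM in HET and 58.2 to 162 FPKM in WT. No marker was at 0 in any library, and their part in the result was not tested.

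The members' promoters were compared for the letters of 4 factors known to act on respiratory genes. This comparison does not bear on the shift between libraries, which the members largely shared with all genes. Of the 46 genes, 40 matched the RefSeq table (GRCm38.p6, the assembly also called mm10), which holds a window around each start site. These are reference letters, and the HET libraries carry another strain label. The letters of NRF1, GCGCA and GCGC with any base between them, occurred on either strand in 9 of the 40 genes (22.5%), against 14.0% of tested genes with a promoter and 5.19% of all genes in the table. AAGATGG of YY1 occurred in 8 (20.0%, against 9.87% and 7.28%). CCGGAAG of ETS factors such as GABPA occurred in 6 (15%, against 23.3% and 9.93%), and AAGGTCA of ERR in 3 (7.5%, against 3.59% and 5.38%). No motif contains another, and median GC content was 59.3%, against 61.7% and 52.7%. A match is only a run of letters. At least 1 of the 4 motifs occurred in 22 of the 40 genes (55.0%, against 42.3% and 24.5%). Ndufa7, without overlap before and after scaling, held none of them. Promoters of 4 members that each hold a match are shown 5′ to 3′ on the gene's strand, with matches in capitals. They are Ndufb8, with the largest difference, Ndufs6, whose groups did not overlap, the core subunit Ndufs3, and Ndufa5, with a difference near 0.
Ndufb8 (chr19:44555393-44555692, minus strand): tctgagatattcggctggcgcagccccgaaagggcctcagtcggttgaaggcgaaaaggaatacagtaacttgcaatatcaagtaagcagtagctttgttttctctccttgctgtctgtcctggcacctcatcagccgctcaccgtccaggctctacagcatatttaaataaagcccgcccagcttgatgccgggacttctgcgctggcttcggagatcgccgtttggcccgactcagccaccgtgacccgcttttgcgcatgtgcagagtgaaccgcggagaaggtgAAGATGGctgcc
Ndufs6 (chr13:73328433-73328732, minus strand): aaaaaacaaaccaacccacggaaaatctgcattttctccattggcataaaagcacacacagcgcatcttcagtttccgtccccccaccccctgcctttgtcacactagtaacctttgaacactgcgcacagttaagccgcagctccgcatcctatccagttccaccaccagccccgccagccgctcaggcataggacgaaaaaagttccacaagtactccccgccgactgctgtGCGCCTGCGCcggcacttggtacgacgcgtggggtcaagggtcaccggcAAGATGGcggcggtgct
Ndufs3 (chr2:90904672-90904971, minus strand): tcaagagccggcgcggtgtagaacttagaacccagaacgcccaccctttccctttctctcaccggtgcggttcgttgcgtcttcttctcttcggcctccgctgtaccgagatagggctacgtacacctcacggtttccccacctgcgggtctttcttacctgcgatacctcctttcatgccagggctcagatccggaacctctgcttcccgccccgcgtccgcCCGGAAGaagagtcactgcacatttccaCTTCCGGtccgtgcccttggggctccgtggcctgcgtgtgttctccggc
Ndufa5 (chr6:24527641-24527940, minus strand): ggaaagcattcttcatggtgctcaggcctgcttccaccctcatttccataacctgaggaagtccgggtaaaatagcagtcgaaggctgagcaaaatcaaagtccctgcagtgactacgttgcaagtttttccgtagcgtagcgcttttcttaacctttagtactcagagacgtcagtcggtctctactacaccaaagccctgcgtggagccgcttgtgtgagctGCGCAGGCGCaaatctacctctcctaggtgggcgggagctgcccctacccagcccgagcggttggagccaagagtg
Ndufb8 holds the YY1 letters near the end of the window, Ndufs6 an NRF1 match upstream of the start and a YY1 match after it, Ndufs3 the ETS letters on both strands, and Ndufa5 an NRF1 match. Ndufb8 and Ndufs6 thus share the YY1 letters after the start, and Ndufs6 and Ndufa5 share the NRF1 letters before it. All 8 genes with the YY1 letters held them after the start, beginning at positions 11 to 39. Among these genes were Ndufs7 and Ndufaf8, whose differences fell below 0 after median-of-ratios scaling. The YY1 letters contain ATG, so a match there can also be a start of translation, which was not examined. Any relation between motifs and differences was not tested.

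Genes around complex I that do not carry the Nduf name also had mostly higher means in HET libraries, without passing the test, as did 83.1% of all tested genes, whose median difference was 0.083 as deposited and 0.013 after median-of-ratios scaling. Of 10 other complex I assembly genes, 7 were tested and all 7 had higher means in HET, with 0 passing in either direction and a median of 0.10. After scaling 6 of the 7 were higher, with a median of 0.038. Ecsit, which belongs to an early assembly complex with Ndufaf1, had the largest value at 0.16 (SE 0.13, limma adjusted p = 0.90), with 3.49 ± 0.53 FPKM in HET and 3.02 ± 0.49 FPKM in WT libraries (SD, n = 3 each). Of 38 nuclear genes of complexes II to V, 37 had higher means and 0 passed, with a median of 0.23. After scaling 34 of the 38 were higher, with a median of 0.13. Cox6c, a subunit of complex IV, was the exception as deposited, at 23.5 ± 1.3 FPKM in HET and 23.9 ± 4.5 FPKM in WT libraries (SD, n = 3 each). All 11 markers of mitochondrial mass, such as the citrate synthase gene Cs, had higher means and 0 passed, with a median of 0.16. After scaling their median was 0.075, and all 11 were still higher.

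Regulators of respiratory genes were mostly at low levels. Of 12 listed, 8 averaged under 1 FPKM and were not tested. Of the 4 tested, 3 had higher means in HET and 0 passed, with a median of 0.048 that became -0.015 after scaling, where 2 of the 4 were higher. Esrra, an orphan nuclear receptor gene, had 3.69, 4.35 and 3.51 FPKM in HET and 3.99, 3.06 and 3.23 FPKM in WT libraries. Tfam, which packages and transcribes mitochondrial DNA, had 2.66, 2.87 and 2.49 FPKM in HET and 2.80, 2.28 and 2.37 FPKM in WT libraries. The groups overlapped in both genes. Gabpa, whose product binds the ETS letters, had 1.27, 1.28 and 1.10 FPKM in HET and 1.46, 0.975 and 1.28 FPKM in WT libraries. Yy1 had 1.49, 1.49 and 1.49 FPKM in HET and 1.65, 1.22 and 1.54 FPKM in WT libraries. Over the 12, the groups overlapped in 11, and WT replicate 2 was the lowest library in 10. In Ppargc1b, a coactivator gene, HET lay below WT as deposited. It had 0.222, 0.215 and 0.204 FPKM in HET and 0.231, 0.294 and 0.292 FPKM in WT libraries, under the minimum for testing. Divided by their scaling factors, 0.994 in HET replicate 1 and 1.09 in WT replicate 1, these libraries changed order, so the groups then overlapped. As deposited, HET lay below WT in 0.739% of all tested genes, a set that holds no gene averaging under 1 FPKM.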

How the data were processed

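Total RNA libraries were made with a stranded kit and sequenced as single-end reads on a NextSeq 500, per the labels' protocols. The authors filtered out mitochondrial and ribosomal sequences, trimmed 2 bases, aligned to mm10 with TopHat2 and Bowtie 1, and deposited FPKM values from Cufflinks, 1 library per file, per the labels' protocols. Sources used here give neither the annotation nor all versions. FPKM divides by library size, so a shift in abundant RNAs can move all other genes.

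In HET replicate 2, 40 values read as dates and their genes were left out; none was an Nduf gene. The 6358 genes averaging 1 FPKM or more were tested on log2(FPKM + 1). The fit used R 4.3.3 and limma 3.58.1 (trend on), and p-values were adjusted over all of these genes by the Benjamini-Hochberg method. Each SE rests mostly on genes of like level (54.4 prior against 4 residual degrees of freedom). No count test was run, since FPKM values are not counts. Depth assumes that the most frequent low value of genes with 1 annotated transcript stands for 1 read, without correction for effective length. It was searched only within a fixed range of depths, so a depth outside that range could not be found. The estimate rests on 20 to 27 values per library among 3680 genes. For the 6 members with 1 annotated transcript this depth gave 74.9 to 1015.4 reads per library, a counting error of 3.14% to 11.6% of the value, sampling only. Positions and 73-base words came from GENCODE M21, and tables from Python 3.11.15 with pandas 2.3.3.

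Members and lists were chosen with earlier results of these data known. Values in every library were given for the redox core, the 4 highest and 4 lowest members by level, the 5 at each end of the difference, the 3 smallest p and those without overlap; other genes, such as Malat1, Ecsit, Cox6c and Ppargc1b, were named after their values were seen. The single values of 1 member are not reported here; counts and medians include it. Alternatives were 2 scalings, the pseudocount, the filter, the trend, a replicate block and libraries left out.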

Additional observations from a re-analysis of the deposited data

How the results depend on the processing

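No Nduf gene passed under any alternative run, including a pseudocount of 0.1 FPKM (lowest limma adjusted p of a member 0.29, without WT replicate 1). The count over all tested genes was 5, against 0 with median-of-ratios scaling, with quantile normalization and without the trend, 1 with no filter, 6 at a mean of at least 5 FPKM, 67 without replicate 2 of both groups, 5 to 62 with 1 library left out, and 0 to 0 with 1 left out after median-of-ratios scaling, an alternative chosen after seeing the data. With replicate number as a block it was 13, with 0 members called. Same-numbered libraries did not all deviate together (correlations -0.28, -0.52 and 0.14 for numbers 1, 2 and 3). Deviations were taken from group means of 3 libraries, so these correlations depend on each other. They cannot show whether same-numbered libraries shared a preparation. The members' median difference, 0.16, was 0.029 without replicate 2 of both groups and 0.092 to 0.24 with 1 library left out. Its distance from the median of all genes, 0.075, was 0.14 with no filter, 0.035 at a mean of at least 5 FPKM, 0.056 to 0.094 with 1 library left out, and 0.036 to 0.081 with 1 left out after scaling. Members higher in HET numbered 25 of 25 at 5 FPKM (90.6% of all genes then tested), where fewer genes were tested, and 37 to 41 of 41 with 1 library left out (55.3% to 90.6% of all genes).

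Of 20 named members, 246 of 272 values kept their direction and 26 did not. Under median-of-ratios scaling these were Ndufs7 (-0.0086), Ndufa5 (-0.074), Ndufa12 (-0.065), Ndufaf8 (-0.044), Ndufaf7 (-0.0092) and Ndufs5 (-0.0054). Under quantile normalization they were Ndufs7 (-0.031), Ndufa5 (-0.10), Ndufa12 (-0.073), Ndufaf8 (-0.043) and Ndufaf7 (-0.0058). Without replicate 2 of both groups they were Ndufs1 (-0.0039), Ndufs7 (-0.025), Ndufa4 (-0.012), Ndufa5 (-0.079), Ndufa12 (-0.0099), Ndufaf8 (-0.10) and Ndufaf7 (-0.0053). With 1 library left out, values ran from 0.014 to 0.18 for Ndufs7, -0.044 to 0.070 for Ndufa5, -0.054 to 0.097 for Ndufa12, -0.072 to 0.082 for Ndufaf8, 0.012 to 0.099 for Ndufaf7, -0.015 to 0.15 for Ndufs5, 0.065 to 0.23 for Ndufs1 and 0.045 to 0.21 for Ndufa4. The cause was not tested.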
